A study of Mus musculus with 6 samples.

Results

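The Slc25 genes encode the mitochondrial carrier family, and 44 of the 46095 gene symbols in the deposited table were taken as its members. The rule was a symbol made of Slc25a and a number, which 47 symbols met, without Slc25a13, Slc25a15 and Slc25a20. The rule itself uses names and no measured value. Gene expression had been measured by RNA-seq in material labelled as hepatocytes from the liver of C57BL/6 mice that were fed a high-fat diet (HFD) for 26 weeks. The 3 wild-type libraries (HFD-WT) and the 3 libraries titled HFD-ARRB1-KO share the strain and the diet and differ, by their titles, in Arrb1, the gene of the receptor adaptor beta-arrestin 1. In the genotype field, however, ARRB1-/- stands for knockout replicate 1 only; replicate 2 has ARRB2-/- there and replicate 3 has ARRB3-/-. The labels give no age, no sex and no statement on whether the deletion is limited to a cell type or whether animals were pooled.

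Mitochondrial carriers are small proteins of the inner mitochondrial membrane, built from a sequence repeat that folds into a channel-like cavity with a binding site at its centre. Most of them exchange one metabolite for another, so that ATP, phosphate, carboxylic acids, amino acids, cofactors and iron can cross a membrane that is otherwise tight. In hepatocytes they link the mitochondrial matrix with gluconeogenesis, urea synthesis, lipid synthesis and fatty acid oxidation, and a few members work in other membranes, such as that of the peroxisome.

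Slc25a42 and Slc25a10 were the members whose difference between genotypes passed the test, and Slc25a47 was the member with the highest level. The 250 bases before the annotated start of these 3 genes are printed here to show the sequence next to their starts, 5′ to 3′ on the strand of the gene, from RefSeq on GRCm38.p6. Capitals mark each CCAAT, the letters of the CCAAT box of many promoters, read on either strand (ATTGG on the other). The region of Slc25a42 is chr8:70212282-70212531 on the minus strand, that of Slc25a10 is chr11:120491587-120491836 on the plus strand and that of Slc25a47 is chr12:108850879-108851128 on the plus strand. GENCODE starts the first coding transcript of Slc25a42 24 bases further upstream, inside the printed window, and that of Slc25a47 at the RefSeq start, 108851129, while noncoding transcripts of Slc25a47 begin up to 15083 bases upstream and give the gene its longer span.
Slc25a42: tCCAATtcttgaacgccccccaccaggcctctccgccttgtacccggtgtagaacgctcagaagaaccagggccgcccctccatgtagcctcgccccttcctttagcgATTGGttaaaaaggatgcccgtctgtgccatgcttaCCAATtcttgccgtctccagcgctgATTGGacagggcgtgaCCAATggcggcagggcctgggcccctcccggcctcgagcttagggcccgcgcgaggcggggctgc
Slc25a10: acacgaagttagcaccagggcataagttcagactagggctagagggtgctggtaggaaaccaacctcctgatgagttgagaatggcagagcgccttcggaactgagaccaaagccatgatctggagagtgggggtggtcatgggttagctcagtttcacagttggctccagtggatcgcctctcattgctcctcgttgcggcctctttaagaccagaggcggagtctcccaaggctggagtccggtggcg
Slc25a47: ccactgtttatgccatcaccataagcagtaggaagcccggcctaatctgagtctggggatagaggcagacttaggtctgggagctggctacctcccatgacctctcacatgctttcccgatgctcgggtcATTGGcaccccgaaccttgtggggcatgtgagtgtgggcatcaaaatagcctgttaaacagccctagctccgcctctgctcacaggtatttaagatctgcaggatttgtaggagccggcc

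The region of Slc25a42 held 5 CCAAT matches, that of Slc25a47 held 1 and that of Slc25a10 held 0. At least 5 matches occurred in 0.213% of all 32851 promoter windows of the same length, and at least 1 in 33.8%. Of the members, 33 had an entry, with 42 windows between them, and 20 of these windows held at least 1 match. The GC box letters GGGCGG were in 29 of the 42 member windows and in 32.7% of all windows, with 1 match for Slc25a42 and 0 for Slc25a10 and Slc25a47. By gene, 23 of the 33 members had a match. The member windows were richer in G and C, with a median of 56.8% against 52.4% in all windows, and its part in these shares was not tested. AGGTCA, the half-site of many nuclear receptors, was in 4 of the 42 windows and in 14% of all windows, and 1 match lay in that of Slc25a47. The direct repeat of these letters with 1 base between (DR1), the form that PPAR dimers bind, was in 0 of the 42 windows and in 0.0335% of all. Every motif was searched on both strands, and a match of letters is a description of the sequence only.

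As a check of the labels, Arrb1 (chromosome 7, 99535466 to 99606771, GRCm38) had 3.86, 22.65 and 16.9 FPKM in the HFD-WT libraries, against 0.918, 1.05 and 1.16 FPKM in those titled knockout, all below the lowest wild-type value (log2 fold change -2.64 ± 0.514, SE; adjusted p = 0.0275 by limma). FPKM are fragments scaled by gene length and by the size of the library, so levels of different genes can be compared per length. The FPKM steps gave whole reads, with 26950171 to 31994896 reads in the wild-type libraries and 13355863, 33877683 and 28140365 in knockout replicates 1 to 3. Of the 12 hepatocyte markers listed, all 12 were tested, 0 were higher and 3 were lower, against 5.3% and 1.6% of all genes tested. Markers of other liver cells were present as well. All 10 Kupffer cell, 9 endothelial and 10 stellate cell and fibroblast markers were tested. Of these, 1 Kupffer cell marker was lower, and 2 endothelial and 2 stellate cell and fibroblast markers were higher. In each of these lists 0 were called in the other direction. The summed level of 10 Kupffer cell markers ran from 234 to 262 FPKM in HFD-WT and from 242 to 277 FPKM in knockout, that of 9 endothelial markers from 126.0 to 147 and from 141 to 164 FPKM, and that of 10 stellate cell and fibroblast markers from 139 to 160 and from 163 to 238 FPKM. The 9 markers of lipid-associated or recruited macrophages summed to 39.1 to 73.9 FPKM in HFD-WT and to 64.7, 169 and 96.1 FPKM in knockout replicates 1 to 3. Of the 7 tested, 3 were higher and 0 were lower, against the same 5.3% and 1.6% of all genes. Of 8 cholangiocyte markers 5 were tested and 0 were called, and 0 of 8 T and B lymphocyte markers were tested. The 8 adipocyte markers summed to 347 to 511 FPKM in HFD-WT and to 203.5 to 324.5 FPKM in knockout, with Ucp1 listed at 0 in every library. Only 3 of these 8 were tested, 1 higher and 1 lower. Their median log2 fold change was 0.73, against the direction of the sum. The part of these cells in the differences given here was not tested.

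Levels of the members ranged from 0 reads to a mean of 514 FPKM. Averaged over the 6 libraries, 4 members were above 100 FPKM, 11 lay between 10 and 100, 16 between 1 and 10, and 13 below 1 FPKM. Differences were tested only for the 31 members with a mean of at least 1 FPKM. The family summed to 1398, 1496 and 1657 FPKM in the wild-type replicates and to 1666, 2016 and 1996 FPKM in the 3 knockout libraries. Each knockout sum was above each wild-type sum, but 1657 and 1666 FPKM lay close together. Median-of-ratios size factors were 0.952 to 0.984 in HFD-WT and 1.003 to 1.082 in knockout, and the sums were not divided by them. The factor was 0.984 for wild-type replicate 3 and 1.003 for knockout replicate 1. Divided by these, the sum of wild-type replicate 3 comes out above that of knockout replicate 1. The family sums of the groups therefore overlap after such scaling. Without Slc25a47 the sums were 1097 to 1190 FPKM in HFD-WT and 1176 to 1289 FPKM in knockout, and the groups overlapped. Slc25a47 alone made up 20.8 to 28.2% of the family sum in wild type and 29.4 to 36.1% in knockout, and the 5 highest members together 71.4 to 76.7% in the 6 libraries.

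**Figure D1:**
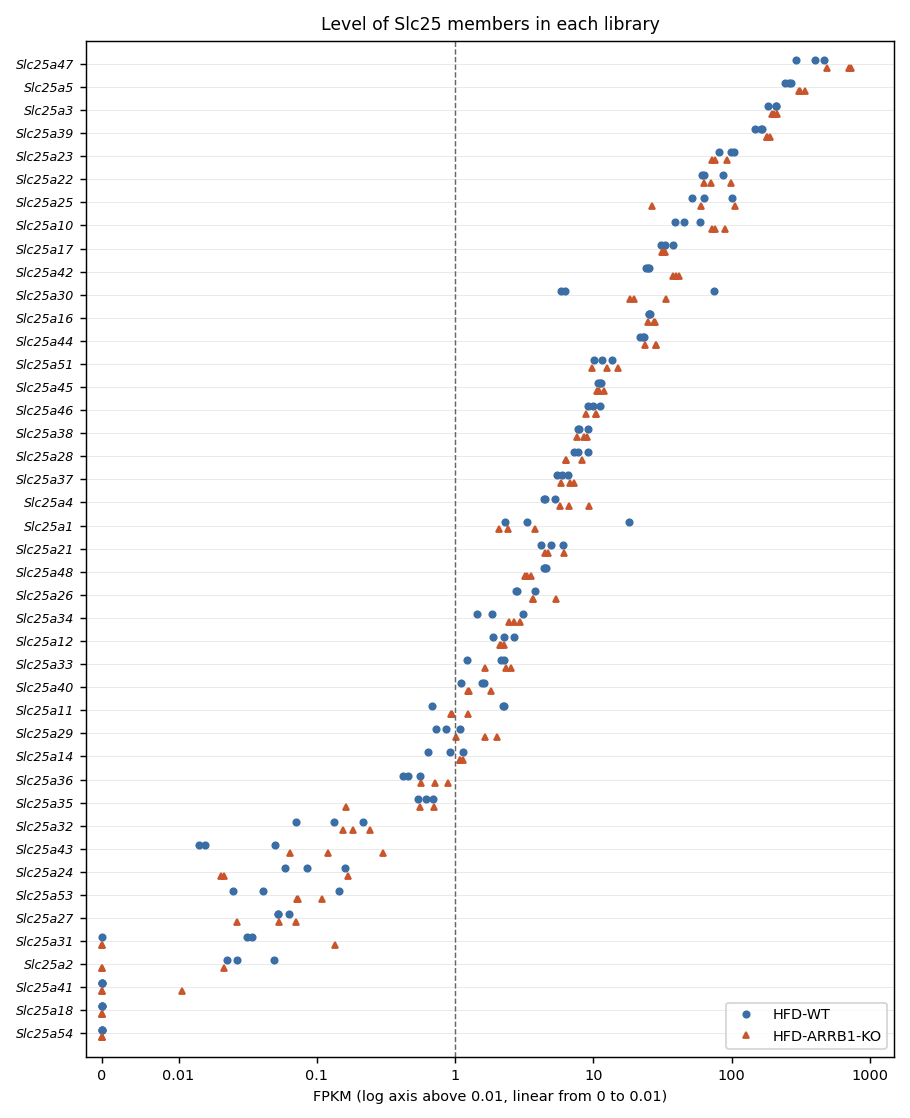
FPKM of the members, all but 1, in each library, ordered by the mean over the 6 libraries, with circles for HFD-WT, triangles for HFD-ARRB1-KO and a dashed line at 1 FPKM; the axis is logarithmic above 0.01 and linear below. Slc25a47, Slc25a5, Slc25a3 and Slc25a39 are above 100 FPKM on average, and 13 members lie below 1 FPKM.

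Of the 31 tested members, 2 were higher in the knockout libraries, Slc25a42 and Slc25a10, and 0 were lower (limma, adjusted p under 0.05). The background was 5.3% of the 10633 genes tested for a higher level and 1.6% for a lower level, and 2 of 31 is 6.45%. The share of called members was thus near the background. At an unadjusted p under 0.05, 7 members were higher and 1 was lower, against 19.1% and 6.19% of all genes tested, and the 7 include Slc25a29, which passed the filter through its knockout values. Limma's voom on the recovered reads called 2 members higher and 0 lower, against 7.45% and 1.89% of all genes. The groups did not overlap for 7 members with knockout above and 1 with knockout below. These are 22.6% and 3.23% of the tested members, against 23.4% and 7.81% of all genes tested. The median log2 fold change (knockout minus wild type, on the log2(FPKM + 1) scale) was 0.067 over the 31 tested members and 0.075 over all genes tested, and it was above 0 for 22 members, or 71.0%, against 63.6% of all genes. As these are libraries of bulk RNA, fewer cells of a type and less RNA per cell cannot be told apart. An exact permutation test of a single gene cannot give a p below 0.1 with 3 against 3 libraries.

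Slc25a42, which brings coenzyme A into the matrix in exchange for adenine nucleotides, rose (chromosome 8, 70184340 to 70212305, minus strand). Its level was 24.9, 23.8 and 25.0 FPKM in HFD-WT replicates 1 to 3 and 37.5, 39.6 and 41.7 FPKM in the 3 knockout libraries. The values of each group lay close together and the groups were far apart, and the shallowest library, knockout replicate 1, had the lowest of the 3 knockout values. The means were 24.6 ± 0.658 and 39.6 ± 2.07 FPKM (SD, n = 3 each), a 1.61-fold difference, with a log2 fold change of 0.67 ± 0.0795 (SE; adjusted p = 0.00575 by limma). Behind these values stood 1656 to 4407 reads per library. The call was made under all 16 alternatives tried, with adjusted p from 0.00344 to 0.0311, and the fold change stayed between 0.57 and 0.73. Its spread within groups, 0.0584 on the log2 scale, was smaller than that of all but 5.42% of the genes tested.

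Slc25a10, the dicarboxylate carrier, which exchanges malate and succinate for phosphate and feeds gluconeogenesis and lipid synthesis, also rose (chromosome 11, 120491840 to 120499187, plus strand). It was at 58.8, 38.9 and 45.0 FPKM in the wild-type replicates and at 76.2, 89.3 and 71.9 FPKM in the 3 knockout libraries. Every knockout value was above the highest wild-type value, that of replicate 1. The means were 47.6 ± 10.2 and 79.1 ± 9.08 FPKM (SD, n = 3 each), 1.66-fold, with a log2 fold change of 0.74 ± 0.158 (SE; adjusted p = 0.0366 by limma). The call was lost with no filter (adjusted p = 0.12) and with median-of-ratios scaling (0.0522). It was also lost without wild-type replicate 2 (0.107) or 3 (0.0811) and without knockout replicate 1 (0.0667), 2 (0.129) or 3 (0.0658), while the log2 fold change stayed between 0.61 and 0.90. An antisense gene, Gm11788, which the table does not list, overlaps its exons, and the sources used here give no strand setting.

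**Figure D2:**
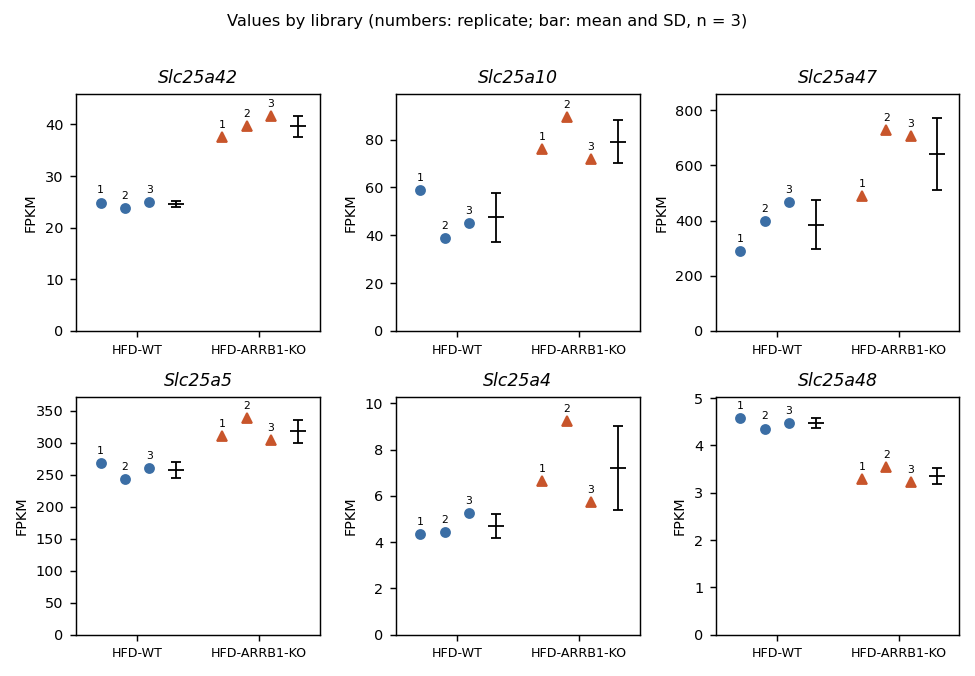
FPKM by library for 6 members, with the replicate number over each point and the mean and SD (n = 3) beside each group; each axis starts at 0. The groups do not overlap in any of the 6 panels: knockout is above wild type for Slc25a42, Slc25a10, Slc25a47, Slc25a5 and Slc25a4 and below it for Slc25a48, and Slc25a42 and Slc25a10 alone were called.

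Among the carriers that serve ATP supply, Slc25a5 and Slc25a4 encode the adenine nucleotide translocases ANT2 and ANT1, which exchange matrix ATP for cytosolic ADP. Slc25a5 measured 269, 244 and 260.4 FPKM in HFD-WT and 311, 339 and 304 FPKM in knockout, with a log2 fold change of 0.30 ± 0.0914 (SE; adjusted p = 0.0912 by limma). Slc25a4, the form known from heart and muscle, was at 4.36, 4.43 and 5.27 FPKM in HFD-WT and at 6.62, 9.24 and 5.75 FPKM in knockout (0.51 ± 0.159, adjusted p = 0.0969). In both genes the knockout values were all above the wild-type values and neither was called. Slc25a4 made up 1.79 ± 0.194% of the sum of the pair in wild type and 2.20 ± 0.410% in knockout (SD, n = 3 each), and these shares overlapped. Slc25a31, the translocase known from testis, rested on at least 4 reads over all libraries.

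Slc25a3, the phosphate carrier that supplies ATP synthase, was at 209, 181.5 and 209 FPKM in HFD-WT and at 196, 214 and 202 FPKM in knockout. The ranges overlapped and the log2 fold change was 0.032 ± 0.0947 (SE; adjusted p = 0.866 by limma). The ATP-Mg/phosphate carriers adjust the matrix adenine nucleotide pool in response to calcium. Slc25a23 was at 98.25, 104 and 80.6 FPKM in HFD-WT and at 93.1, 76.1 and 72.0 FPKM in knockout (-0.23 ± 0.135, adjusted p = 0.326; -0.15 without wild-type replicate 2), with overlapping groups. Slc25a25 ran from 51.7 to 101 FPKM in HFD-WT and from 26.6 to 105 FPKM in knockout. Its relatives Slc25a24 (55 reads over all libraries) and Slc25a41 (at least 1 read) were below the filter. Of the 8 members with these roles, 5 were tested and 0 were called.

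Of the 4 carboxylate carriers, all tested, Slc25a10 alone was called, and 2 had a log2 fold change above 0 and 2 below. Slc25a1, the citrate carrier that exports acetyl units for fatty acid and sterol synthesis, was at 3.33, 18.1 and 2.30 FPKM in HFD-WT and at 2.40, 3.79 and 2.08 FPKM in knockout. Wild-type replicate 2 stood far above the other libraries, whose values overlapped between groups. Its log2 fold change was -0.81 ± 0.589 (SE; adjusted p = 0.427 by limma) and became -0.03 without that library and -1.3 without wild-type replicate 3. Slc25a11, the oxoglutarate carrier of the malate-aspartate shuttle, was at 0.675, 2.22 and 2.26 FPKM in HFD-WT and at 1.23, 0.946 and 0.935 FPKM in knockout (-0.36 ± 0.255, adjusted p = 0.423). The fold change was -0.67 without wild-type replicate 1, -0.20 without replicate 2 and -0.19 without replicate 3. Exons of Slc25a11 overlap those of Rnf167 on the other strand. Slc25a21, which carries oxoadipate and oxoglutarate, had means of 5.04 ± 0.931 FPKM in HFD-WT and 5.09 ± 0.914 FPKM in knockout (SD, n = 3 each).

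Among 7 amino acid carriers, 5 were tested and 0 were called. Slc25a22, a glutamate carrier, had the highest level of these, with 60.7, 62.5 and 85.8 FPKM in HFD-WT and 62.7, 70.8 and 99.6 FPKM in knockout, and its groups overlapped. The other glutamate carrier, Slc25a18, was listed at 0 reads in every library, so at most 3 reads per library would be allowed by counting error. Slc25a44, a branched-chain amino acid carrier, was at 23.35, 21.8 and 22.9 FPKM in HFD-WT and at 23.6, 28.1 and 28.3 FPKM in knockout (0.22 ± 0.0959 on the log2 scale; limma, adjusted p = 0.202). The lowest knockout value, in replicate 1, was just above the highest wild-type value. Slc25a29, a carrier of basic amino acids, was at 1.09, 0.730 and 0.857 FPKM in HFD-WT and at 1.65, 1.99 and 1.01 FPKM in knockout (0.42 ± 0.17; adjusted p = 0.178). It passed the filter through its knockout values, since its wild-type mean was 0.891 FPKM. Slc25a38, a glycine carrier needed for haem synthesis, had 8.25 ± 0.828 and 8.37 ± 0.726 FPKM, and Slc25a12, an aspartate-glutamate carrier, 2.26 ± 0.384 and 2.17 ± 0.0625 FPKM, in wild type and knockout (SD, n = 3 each).

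**Figure D3:**
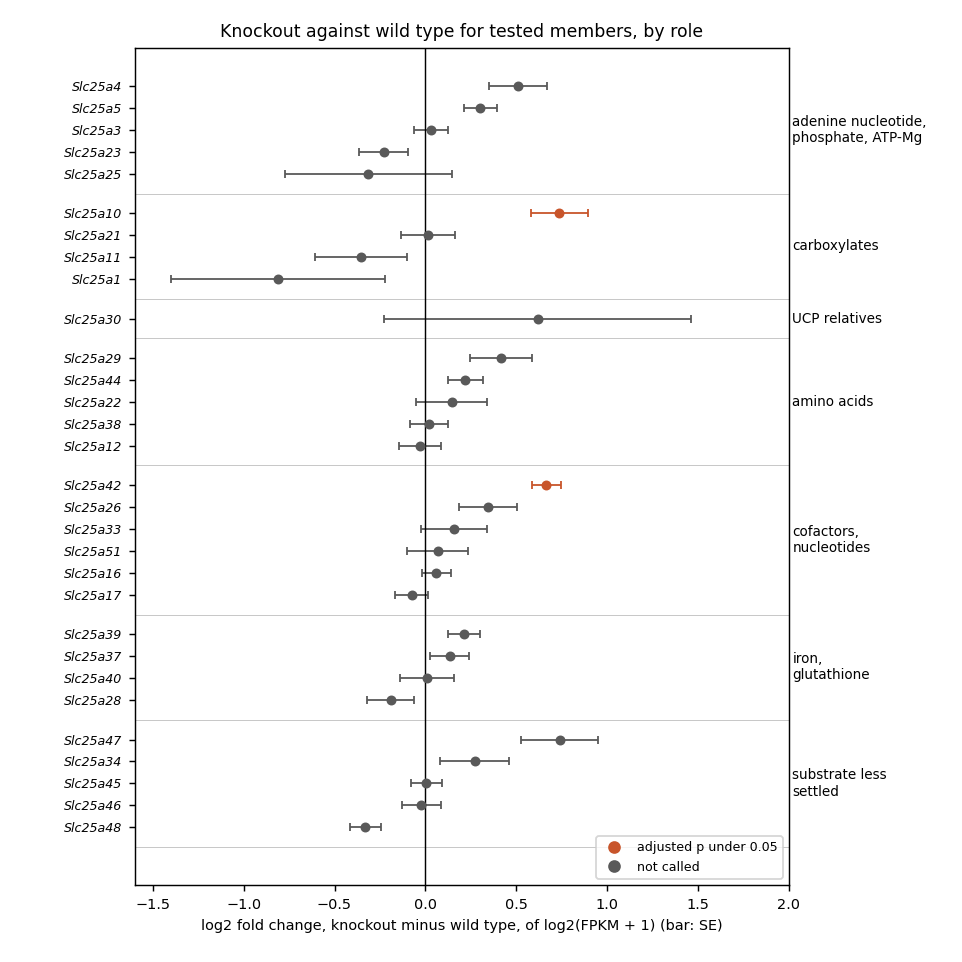
Log2 fold change (knockout minus wild type, on the log2(FPKM + 1) scale) with its SE for the tested members, all but 1, grouped by what they carry; orange points passed the test. Slc25a10 at 0.74 and Slc25a42 at 0.67 are the called members, while Slc25a30, Slc25a1 and Slc25a25 have the widest bars.

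Of 9 carriers of cofactors and nucleotides, 7 were tested and Slc25a42 was the called one. Slc25a16, which has also been linked to matrix coenzyme A, was at 25.4, 25.8 and 25.1 FPKM in HFD-WT and at 27.3, 27.6 and 24.7 FPKM in knockout. Slc25a16 therefore kept an overlapping range while Slc25a42 did not. Its share of the summed FPKM of these 2 genes was 50.5, 51.9 and 50.02% in wild type and 42.1, 41.1 and 37.2% in knockout, without overlap (exact permutation p = 0.1, adjusted over 6 pairs 0.4). The sum of both genes went from 50.0 ± 0.363 to 66.2 ± 1.25 FPKM (SD, n = 3 each). The 6 pairs were put together after the values had been seen. With 3 against 3 libraries the exact test cannot give a p below 0.1, so it could not have called any pair. The lower share of Slc25a16 restates the rise of Slc25a42 beside an overlapping Slc25a16. In the other 5 pairs (Slc25a4 with Slc25a5, Slc25a28 with Slc25a37, Slc25a39 with Slc25a40, Slc25a33 with Slc25a36, and Slc25a23 with Slc25a25) the shares overlapped between groups, with adjusted exact permutation p from 0.4 to 1.0.

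**Figure D4:**
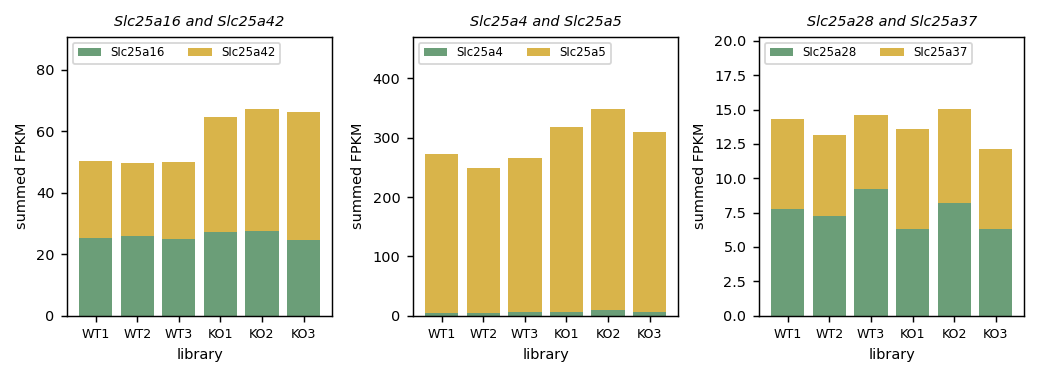
Stacked FPKM of 3 pairs of members in each library, from 0. The sum of Slc25a16 and Slc25a42 lies at 49.6 to 50.3 FPKM in HFD-WT and at 64.8 to 67.3 FPKM in knockout, and the added height is in Slc25a42; Slc25a4 is a thin layer under Slc25a5, and Slc25a28 and Slc25a37 contribute similar levels.

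The other cofactor carriers shown were not called. Slc25a26, which brings S-adenosylmethionine into the matrix for methylation, was at 2.80, 2.74 and 3.80 FPKM in HFD-WT and at 5.39, 3.66 and 3.67 FPKM in knockout (0.34 ± 0.16 on the log2 scale; limma, adjusted p = 0.227). Without knockout replicate 1, which had its highest value, the log2 fold change was 0.19. Slc25a17, a carrier of the peroxisomal membrane, had means of 33.8 ± 3.32 and 31.9 ± 0.795 FPKM, and Slc25a51, the NAD carrier, 11.7 ± 1.83 and 12.4 ± 2.71 FPKM in HFD-WT and knockout (SD, n = 3 each). The pyrimidine nucleotide carrier Slc25a33 was at 1.22 to 2.25 FPKM in HFD-WT and 1.66 to 2.52 FPKM in knockout. Its relative Slc25a36, below the filter, was at 0.559, 0.416 and 0.456 FPKM in HFD-WT and at 0.561, 0.891 and 0.721 FPKM in knockout. With no filter Slc25a36 was not called either (limma, adjusted p = 0.343).

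The iron and glutathione carriers numbered 4, all tested, and 0 were called. Slc25a39, which imports glutathione, was at 163, 146 and 166 FPKM in HFD-WT and at 179, 190 and 181 FPKM in knockout. All knockout values were above all wild-type values, with a log2 fold change of 0.21 ± 0.0885 (SE; adjusted p = 0.189 by limma). Its relative Slc25a40 was at 1.61, 1.098 and 1.56 FPKM in HFD-WT and at 1.24, 1.82 and 1.26 FPKM in knockout, with overlapping groups. Slc25a28 and Slc25a37 encode mitoferrin-2 and mitoferrin-1, the iron importers. Slc25a28 was at 7.77, 7.24 and 9.19 FPKM in HFD-WT and at 6.32, 8.22 and 6.33 FPKM in knockout (-0.19 ± 0.128, adjusted p = 0.39). Leaving out wild-type replicate 3 gave -0.10, and leaving out knockout replicate 2 gave -0.30. Slc25a37, the form known from red cell precursors, was at 5.42 to 6.56 FPKM in HFD-WT and 5.83 to 7.29 FPKM in knockout. The 11 erythroid markers in the table summed to 79.5 to 127 FPKM in HFD-WT and 68.9 to 171 FPKM in knockout, and Rhag was at 0 in every library. Of these markers 6 were tested, 2 were higher and 0 were lower, against 5.3% and 1.6% of all genes tested. The median log2 fold change of the 6 was -0.41, opposite in direction to the 2 calls.

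Slc25a47, known for its expression in hepatocytes, was the member with the highest level (chromosome 12, 108836046 to 108856815, plus strand). It was at 290.4, 399 and 467 FPKM in HFD-WT and at 490.2, 728 and 706 FPKM in knockout. Knockout replicate 1, the lowest of its group, was close to wild-type replicate 3, the highest of the other. The means were 385 ± 89.1 and 642 ± 131 FPKM (SD, n = 3 each), a 1.66-fold difference as for Slc25a10, with a wider SE (log2 fold change 0.74 ± 0.213; limma, adjusted p = 0.081). It was not called, but was after quantile normalization (adjusted p = 0.0432). Exons of Slc25a47 overlap the microRNA gene Mir345 on the same strand.

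Slc25a48, a carrier whose substrate is less settled, had the steadiest values of the tested members. It was at 4.57, 4.36 and 4.48 FPKM in HFD-WT and at 3.29, 3.54 and 3.22 FPKM in knockout, with all knockout values below all wild-type values. The log2 fold change was -0.33 ± 0.0863 (SE; adjusted p = 0.0625 by limma), and the gene was called lower with quantile normalization (0.0283) and with median-of-ratios scaling (0.0325). Slc25a45 and Slc25a46 stayed near the same level in both groups, with 11.1 ± 0.363 and 11.2 ± 0.737 FPKM for Slc25a45 and 10.07 ± 1.05 and 9.89 ± 0.943 FPKM for Slc25a46, a protein of the outer membrane that acts in mitochondrial shape (SD, n = 3 each). Slc25a34 was at 1.43 to 3.12 FPKM in HFD-WT and 2.45 to 2.95 FPKM in knockout. Of these 9 members 5 were tested and 0 were called.

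Slc25a30, a relative of the uncoupling proteins known from kidney, had the widest spread of all tested members. It was at 5.85, 6.26 and 74.8 FPKM in HFD-WT replicates 1 to 3, against 19.5, 18.3 and 33.4 FPKM in the 3 knockout libraries. Wild-type replicate 3 was the highest of the 6 libraries and the other wild-type libraries were the lowest. Its spread within groups exceeded that of 99.85% of all genes tested. The log2 fold change was 0.62 ± 0.847 (SE; adjusted p = 0.692 by limma). Without wild-type replicate 3 it was 1.76 and the gene was called (adjusted p = 0.0214), without wild-type replicate 1 or 2 it was 0.02 or 0.07, and without knockout replicate 3 it was 0.35.

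Slc25a1 and Slc25a25 followed in spread, at percentiles 99.5 and 99.1 of the tested genes, and were singled out after their values had been seen. The highest library was not the same in the 3 genes: wild-type replicate 3 for Slc25a30, wild-type replicate 2 for Slc25a1 and knockout replicate 3 for Slc25a25. Slc25a25 was at 51.7, 101 and 63.1 FPKM in HFD-WT and at 26.6, 60.4 and 105 FPKM in knockout (-0.31 ± 0.459 on the log2 scale; limma, adjusted p = 0.711), and its sign turned to 0.20 without knockout replicate 1. Without knockout replicate 3 it was -0.77, and without wild-type replicate 1 or 2 it was -0.52 or -0.04. Over the 31 tested members the median spread within groups was 0.181 on the log2 scale, against 0.141 over all genes tested.

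**Figure D5:**
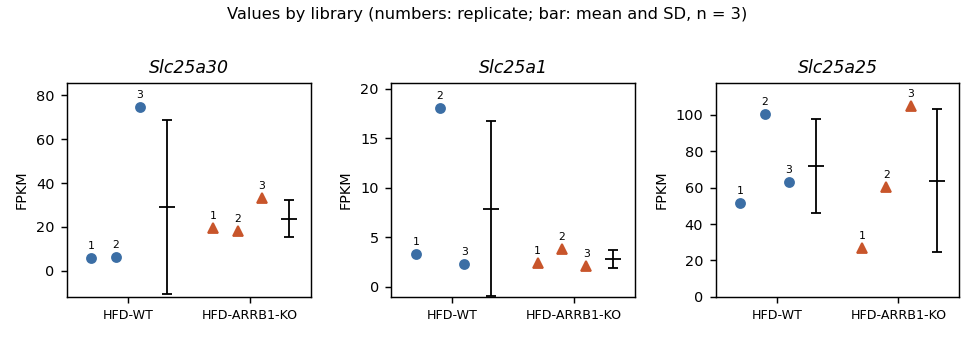
FPKM by library for the 3 members with the widest spread within groups, with the replicate number over each point and the mean and SD (n = 3) beside each group. Slc25a30 reaches 74.8 FPKM in wild-type replicate 3 and Slc25a1 18.1 FPKM in wild-type replicate 2, each far from the other libraries of its group, while Slc25a25 is spread over both groups.

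The 13 members below the filter had 0 to 520 reads over the 6 libraries. Slc25a14, a relative of the uncoupling proteins, lay just outside it at 0.998 FPKM on average, and Slc25a29 (1.22 FPKM) and Slc25a11 (1.38 FPKM) lay just inside. Slc25a14 was at 0.917, 0.634 and 1.13 FPKM in HFD-WT and at 1.079, 1.085 and 1.14 FPKM in knockout, with overlapping groups. Slc25a35 was at 0.614, 0.538 and 0.690 FPKM in HFD-WT and at 0.1635, 0.558 and 0.701 FPKM in knockout, lowest in knockout replicate 1. Its mean was 0.544 FPKM, and Slc25a32, the carrier of flavin and folate cofactors, was at 0.166 FPKM. Slc25a43 was at 0.0140, 0.0502 and 0.0154 FPKM in HFD-WT and at 0.302, 0.1199 and 0.0640 FPKM in knockout, which are 1, 3 and 1 reads against 9, 9 and 4 reads. These groups did not overlap, but the counts are near the 3 reads that a count of 0 allows, and with no filter the gene was not called (limma, adjusted p = 0.348). Slc25a53 and Slc25a27 rested on 82 and 104 reads over the 6 libraries and Slc25a2, an ornithine carrier, on at least 5. Slc25a18 and Slc25a54 had 0 reads in all of them. With no filter, none of the members below 1 FPKM that had any read was called, with adjusted p from 0.343 to 0.867.

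The members lie on 19 chromosomes, so the family is not a cluster of genes. As many as 4 pairs lie within 100 kb of each other, and the neighbours' levels are given here for each pair. Slc25a29 and Slc25a47 on chromosome 12 are 162 bases apart on opposite strands, or 15245 bases when counted to the first coding transcript of Slc25a47, and their means over the libraries were 1.22 and 514 FPKM. On chromosome 17, Slc25a41 (at least 1 read in all) ends 2056 bases from Slc25a23 (87.4 FPKM). On chromosome 3, Slc25a54 (0 reads) ends 6461 bases from Slc25a24 (0.0855 FPKM). On the X chromosome, Slc25a43 (0.0943 FPKM) ends 18448 bases from Slc25a5 (288 FPKM). One member, Slc25a22, is on chromosome 7 with Arrb1, 41.8 Mb away. Exons of 14 members overlap another gene, and for 8 of them the partner is in the table.

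The genes that work beside the carriers were tested in the same fit. A list of 33 genes in the table (family members under other symbols, other transporters of the mitochondrial membranes, and the machinery that imports carriers) had 29 tested, of which 1 was higher and 1 was lower, or 3.45% in each direction, against 5.3% and 1.6% of all genes. Mpc1, a subunit of the mitochondrial pyruvate carrier, rose from 8.10, 7.81 and 9.20 FPKM in HFD-WT to 14.4, 14.8 and 12.8 FPKM in knockout (log2 fold change 0.68 ± 0.0972, SE; adjusted p = 0.0115 by limma). Its partner Mpc2 was at 144.5 to 170.2 FPKM in HFD-WT and 146 to 176 FPKM in knockout. The call for Mpc1 was lost without knockout replicate 2 (adjusted p = 0.0531).

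Abcb10, a transporter of the inner membrane that serves haem synthesis, fell from 12.8, 14.3 and 13.9 FPKM to 11.1, 9.53 and 9.54 FPKM (-0.41 ± 0.0933; limma, adjusted p = 0.0437). That call was lost without any of wild-type replicates 1 (0.0816), 2 (0.136) or 3 (0.0904), without knockout replicate 2 (0.142) or 3 (0.125), with no filter (0.0946), on the TPM scale (0.0547) and with eBayes without trend (0.0542). Ucp2, an uncoupling protein gene of this family, was at 36.15, 29.2 and 30.0 FPKM in HFD-WT and at 37.9, 94.4 and 72.7 FPKM in knockout. Its log2 fold change was 0.99 ± 0.294 (SE; limma, adjusted p = 0.0861), and it was called without knockout replicate 1 (0.00874). Ucp2 lies at 100493337 to 100502020 on chromosome 7, the chromosome of Arrb1 (99535466 to 99606771). An effect of this position was not tested. Of the 14 tested transporters outside the family, Mpc1 and Abcb10 were the called ones. In 6 (42.9%) all knockout values were above all wild-type values and in 1 below (against 23.4% and 7.81% of all genes). At an unadjusted p under 0.05 (limma), 6 were higher and 1 was lower, against 19.1% and 6.19% of all genes. All 12 carrier import genes were tested and 0 were called, with log2 fold changes from -0.13 to 0.34. At the same unadjusted limit, 1 of the 12 was higher and 0 were lower, beside the same shares of all genes. Of the family members under other symbols, Ucp1 was listed at 0 and Mtch1 and Mtch2 had log2 fold changes of 0.052 and 0.12.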

How the data were processed

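The authors deposited 1 table with an FPKM value per gene symbol and library. Bowtie 0.12.2, HISAT2, mm8 and mm10 are named, with no role, per the submitters' processing notes. The annotation, the strand setting and how multiply matching reads were treated are not given in the sources used here. Per the labels' protocols, 1 ug of total RNA, isolated with Trizol, went into each Illumina TruSeq library.

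Reads were recovered from the FPKM steps. Whole reads came out for all 17549 genes with values above 0 in 4 or more libraries, within a tolerance of at most 0.05 reads. A shorter search was run on 2000 genes picked from those that had given whole reads, each with fewer than 2000 reads per library. It gave whole reads for 100% with the right steps and for 0% with wrong steps. The longer search used for all genes was not run with wrong steps. The smallest whole reads that fit were taken, so the counts of genes with values in few libraries are lower bounds. The reads give depth and the voom alternative only, and floors cover counting error only.

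Differences were fitted with limma 3.58.1 in R 4.3.3 (two-sided, eBayes with its trend option) on log2(FPKM + 1), over 10633 genes whose mean reached 1 FPKM, with Benjamini-Hochberg adjustment over all of them and a call under 0.05. The fold change understates the change of low genes. The fit was tested on simulated data. Nothing in the labels says that replicates are separate animals, so the p-values rest on the spread of these libraries only.

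The members, gene lists and tests were chosen with earlier results of these data known. Values in every library were given for called members, for tested members with no overlap between groups, for the 5 highest, for those nearest the filter, and for the 2 with the smallest p in each role. Among the companion genes they were given for the called genes and the 4 with the smallest p. Others shown were chosen after their values were seen. Values of 1 member and 1 companion gene are not reported here, though counts and sums include them. The 16 alternatives were voom, a replicate block, TPM, quantile normalization, median-of-ratios scaling, robust eBayes, eBayes without trend, 0.1 as pseudocount, the filter dropped or raised to 5 FPKM, and each library left out. Positions are from GENCODE vM21 (GRCm38) by symbol. Tables used Python 3.11.15, pandas 2.3.3 and scipy 1.17.1, and plots matplotlib 3.10.9.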

Additional observations from a re-analysis of the deposited data

How the results depend on the processing

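Slc25a42 was called under all 16 alternatives. Higher members, 2 as reported, numbered 1 with no filter and with median-of-ratios scaling, 3 with quantile normalization (Slc25a47 added), and 1 to 2 with a library left out. Among the runs with a library left out, Slc25a10 was called only without wild-type replicate 1. Slc25a30 was called only without wild-type replicate 3. Lower members, 0 as reported, numbered 1 with quantile normalization or median-of-ratios scaling, and 0 with a library left out. The median log2 fold change of the tested members, 0.067 as reported, was 0.158 by TPM and -0.024 by median-of-ratios scaling (all genes 0.13 and -0.007), and 0.056 to 0.115 with a library left out. Called companion genes, 2 as reported, numbered 1 with no filter or eBayes without trend, and 0 to 3 with a library left out. Of all genes, 564 were higher and 170 lower as reported. Dropping the filter gave 88 higher and 58 lower, TPM gave 916 higher, median-of-ratios scaling 352 and quantile normalization 371. With a library left out, 100 (knockout replicate 2) to 428 were higher and 55 (wild-type replicate 2) to 121 lower. Higher genes were 76.8% of the calls as reported, 60.9% by median-of-ratios scaling, 64.5% by quantile normalization and 60.3% with no filter. Slc25a3 (0.03 as reported) was -0.07 by median-of-ratios scaling, and -0.04 to 0.07 with a library left out, below 0 without wild-type replicate 2 and, at -0.0025, without knockout replicate 2. Slc25a25 ran from -0.77 to 0.20 with a library left out. The cause of these shifts was not tested.

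The replicate numbers share no stated origin, and the deviations of same-numbered libraries correlated at -0.0625 to 0.17, over 0.1 in 1 of 3 pairs. With the replicate block, 280 genes were higher and 122 lower, 1 companion gene was called, and the called members were Slc25a42 (adjusted p = 0.0232 by limma) and Slc25a47 (0.0317), while Slc25a10 (0.0625) and Abcb10 (0.0944) were not. Knockout replicate 1, with 13355863 reads, limits what can be said of members under 1 FPKM.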
